A study of Mus musculus with 4 samples.

Results

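The 10 mRNAs described here encode core parts of the mTORC1 pathway, which sets how fast a cell makes protein, and a part of mTORC2 (Rictor). These are Mtor, Rptor, Rictor, Tsc1, Tsc2, Rheb, Rps6kb1, Eif4ebp1, Eif4ebp2 and Larp1. They were taken by symbol from the 31053 genes of the count tables, and all 10 were found and passed the filter on low counts. The question was how abundant these mRNAs were in cultured mouse neurons and whether the pulldown of RPS2, which sits in the small subunit of the ribosome, held more or less of each than total RNA did. All libraries came from primary cortical neurons of wild-type mice, which the study prepared from C57BL/6J embryos, and no transgene or other allele is named for any group. All cultures received floxuridine, which limits the growth of dividing cells, according to the culture methods. The 2 RPS2 IP libraries came from enhanced crosslinking and immunoprecipitation (eCLIP) with an antibody against endogenous RPS2, and their label gives ribosomal RNA depletion as the treatment. The 2 total RNA libraries were taken from the samples ahead of the pulldown, and their label gives no treatment, so an effect of depletion and of the IP cannot be told apart. IP and total RNA libraries with the same replicate number are called a pair, although their labels do not state that they share a culture.

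mTOR is a kinase that works in 2 complexes. In mTORC1 it is joined by raptor, encoded by Rptor, which brings in substrates, and in mTORC2 by rictor. The small GTPase Rheb switches mTORC1 on at the lysosome, and the TSC1-TSC2 complex switches Rheb off. Active mTORC1 phosphorylates S6 kinase 1 (Rps6kb1) and the 4E-BPs (Eif4ebp1, Eif4ebp2), which otherwise block the cap-binding protein eIF4E. It also acts through LARP1, an RNA-binding protein that holds the cap and the first bases of mRNAs with a 5' terminal oligopyrimidine tract (5'TOP), most of which encode ribosomal proteins and translation factors. In neurons the pathway is known for synaptic plasticity and for the cortical malformations and epilepsy that follow its overactivation.

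Because LARP1 and mTORC1 act on the first bases of an mRNA, those bases are shown for 4 members, beside Rps6, a ribosomal protein mRNA of the 5'TOP class and itself the namesake substrate of S6 kinase. The sequences are the 20 bases from the RefSeq start on GRCm38.p6, 5' to 3', with the unbroken pyrimidines (C or T) at the start in capitals.
Mtor: TCCCTggcctagaagacagc
Tsc2: acgggttgcgcttccggcag
Rheb: CCgcgcccgccgccgtgctc
Larp1: gagccttctgcccggcgcgc
Rps6: CTCTTTTTCgtgacgcctcc
These lie at chr4:148448582-148448601 (plus strand), chr17:24632608-24632627 (minus), chr5:24842342-24842361 (minus), chr11:58009064-58009083 (plus) and chr4:86857348-86857367 (minus). Rps6 opened with a run of 9 pyrimidines that began with C. Mtor opened with 5 pyrimidines but with T first, and Rheb with 2. RefSeq starts were found for 9 of the 10 members, all but Eif4ebp1, and 0 of the 9 opened with a C followed by at least 4 pyrimidines on the gene's strand. Of the 27025 genes with a RefSeq start, 3.01% had such an opening at one or more of their starts. Annotated starts differ between sources. In the counted annotation the start of Mtor lay at 148448611, downstream of its RefSeq start, and that of Rheb at 24842624, upstream of its RefSeq start. A missing match therefore says only that these letters are not at these positions.

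Libraries held between 4899718 and 16460545 counts. The single gene Gm42418 took from 15.3% to 42.6% of them, and the 10 members together from 0.0695% to 0.126%. Neuronal markers (Snap25, Tubb3, Map2, Rbfox3, Syt1) summed to 2618 and 3209 CPM (each count as a share of its library, put on a common scale) in the IP, relative to the library total, and to 2334 and 3944 in total RNA. Astrocyte markers (Gfap, Aqp4, Slc1a3, Aldh1l1, Gja1) summed to 1547 and 566 in the IP and to 1295 and 601 in total RNA, and microglial markers to 50.5 and 7.64 against 49.99 and 6.12. Vascular and fibroblast markers summed to 31.8 and 8.45 in the IP, and to 36.2 and 11.8 in total RNA, with Cldn5 at 0 counts in every library. Oligodendrocyte-lineage markers summed to 38.0 and 55.7 in the IP and to 34.7 and 56.3 in total RNA. The astrocyte, microglial and vascular sums were thus higher in both libraries of replicate 1. The neuronal and oligodendrocyte-lineage sums were higher in both libraries of replicate 2. In bulk samples such as these, fewer cells of a type and less RNA per cell cannot be told apart.

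Levels of the 10 mRNAs were compared between genes only per length, as CPM per kilobase of counted exon. These levels were not corrected for GC content. In total RNA they spanned a 30.5-fold range, from Mtor at 33.9 ± 1.87 CPM per kilobase (SD, n = 2) to Rps6kb1 at 1.11 ± 0.227. Mtor thus stood above 93.2% of the 12336 genes tested in total RNA. Larp1 was next at 20.7 ± 0.397, then Tsc2 at 15.9 ± 1.22 and Rptor at 12.3 ± 1.58. Rheb (5.81 ± 2.35), Eif4ebp1 (5.06 ± 0.163), Tsc1 (4.49 ± 0.445) and Eif4ebp2 (4.21 ± 0.365) lay close together, and Rictor was at 2.20 ± 0.377. The same order of abundance was seen in the IP at the top and the bottom, with Mtor at 25.1 ± 0.849, Larp1 at 18.6 ± 2.22, Rictor at 2.17 ± 0.356 and Rps6kb1 at 1.02 ± 0.0469.

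**Figure D1:**
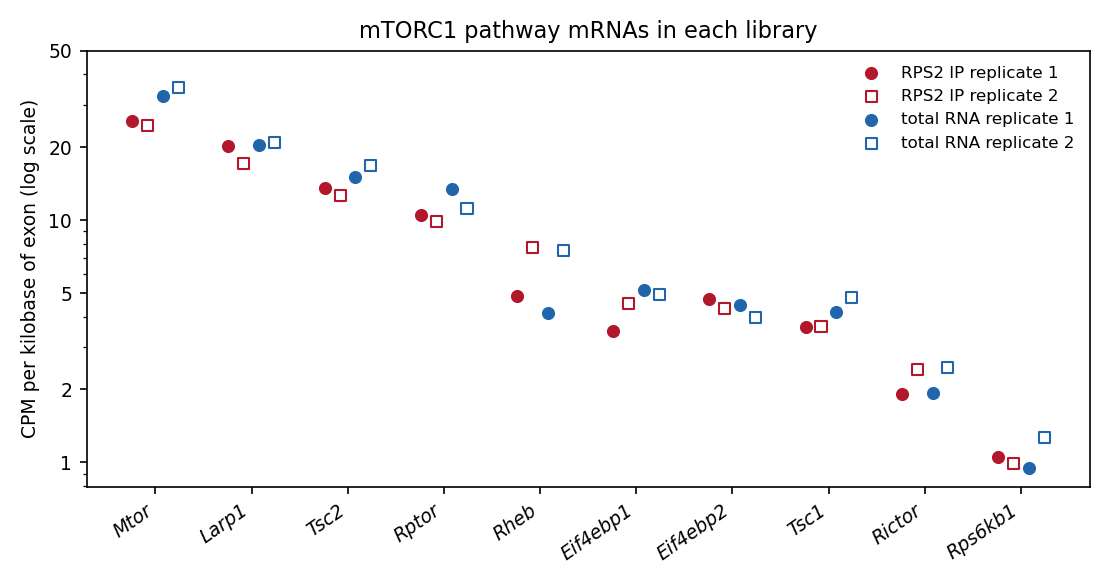
CPM per kilobase of exon (log axis) of the 10 mRNAs in each of the 4 libraries, ordered by the mean of all 4. Red marks are RPS2 IP and blue marks total RNA, with filled circles for replicate 1 and open squares for replicate 2. Mtor lies highest in all 4 libraries (24.5 to 35.3) and Rps6kb1 lowest (0.952 to 1.27).

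Over all 4 libraries, ordered by their mean, the ranges of Mtor and Larp1 did not overlap, nor did those of Larp1 and Tsc2. The ranges of Tsc2 and Rptor overlapped, although Tsc2 was above Rptor in every library. Rheb, Eif4ebp1, Eif4ebp2 and Tsc1 overlapped each with the next, and their order did not exceed the spread between libraries. Tsc1 lay above Rictor, and Rictor above Rps6kb1, without overlap.

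The mRNAs of the TSC1-TSC2 complex were far from equal in level. Tsc1 was at 0.277 and 0.286 of the level of Tsc2 per kilobase in the total RNA of replicates 1 and 2, and at 0.267 and 0.289 in the IP. The proteins they encode act as 1 complex, and of the related members compared this ratio moved least between libraries. Rptor, which marks mTORC1, exceeded Rictor, which marks mTORC2, 6.93-fold and 4.53-fold in total RNA and 5.44-fold and 4.08-fold in the IP. The GC content of Rptor was 55.1% and that of Rictor 41.6%, with exonic lengths of 13471 and 16930 bases. The part of these properties in the ratio was not tested. The 4E-BP mRNAs were nearly level with each other. Eif4ebp2, the main 4E-BP of brain, was at 0.864 and 0.800 of Eif4ebp1 in total RNA, against 1.35 and 0.951 in the IP.

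Next, IP was compared with total RNA, first the kinase and its partners. Mtor held 3599 and 2761 counts by IP against 1481 and 2169 by total RNA. After TMM scaling this came to 260 and 248 CPM for the IP against 330 and 357 for total RNA, and the groups did not overlap. The gene spans chr4:148448611-148557683 on the plus strand (mm10), with 56 separate blocks of counted exon. The log2 ratio of IP to total RNA was -0.34 in pair 1 and -0.52 in pair 2. In the edgeR quasi-likelihood fit without the pairing, the design chosen for this comparison, the log2 fold change was -0.43 ± 0.19 (SE) with an adjusted p of 1.00 (unadjusted p = 0.0724). With the replicate number as a block, so that each IP was set against the total RNA of the same number, the value was -0.43 ± 0.098 and the adjusted p 0.000301. That is 1.35-fold lower, with a 95% interval of the ratio of 0.648 to 0.846.

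The call therefore depended on the pairing. Without the pairing edgeR called 0 of 12336 genes, with 349 at an unadjusted p under 0.05, and 0 of the 10 members, none of which had an unadjusted p under 0.05. DESeq2 without the pairing called 5 genes, all lower in the IP and none of them a member. Under the block edgeR called 14.2% of all genes, 6.63% as higher and 7.55% as lower in the IP. Of the 10 members 2 were called lower (Mtor and Tsc2) and 0 higher. Of the cell type markers, Snap25 (0.37, adjusted p = 0.00273), Aqp4 (0.49, 0.000849) and Slc1a3 (0.34, 0.00840) were called higher in the IP by this fit. The other markers tested were not called. With the block, 4 of the 10 members had an unadjusted p under 0.05, as did 3214 of the 12336 genes tested. Scaling by library totals alone moved the split of all genes to 2.29% higher and 7.12% lower, 9.41% together, and left Mtor called (adjusted p = 0.0141) but not Tsc2 (0.0798). DESeq2 with the block gave no adjusted p to 7653 of the 12336 genes, 3 members among them (Rps6kb1, Eif4ebp1, Eif4ebp2). Of the other 4683 genes it called 11.5%, 3.37% higher and 8.16% lower, and again Mtor (adjusted p = 0.00444) but not Tsc2 (0.182). An exact permutation test of a single gene, 2 libraries against 2, cannot go below a two-sided p of 0.333.

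Rptor measured 141 and 133 CPM by IP against 181 and 150 by total RNA. The groups again did not overlap, with log2 ratios of -0.36 in pair 1 and -0.18 in pair 2. Under the block edgeR gave -0.27 ± 0.10 (SE), and the adjusted p of 0.0587 missed the threshold. Rictor measured 32.5 and 41.0 CPM by IP against 32.7 and 41.8 by total RNA. Its IP and total RNA levels were almost the same within each pair, at -0.0092 and -0.024 on the log2 scale, and the 95% interval of its ratio ran from 0.823 to 1.19 with the block.

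The TSC brake came next. Tsc2, whose product is the GTPase-activating part of the complex, measured 131 and 122 CPM by IP against 145 and 162 by total RNA, without overlap. Its log2 ratio was -0.15 in pair 1 and -0.41 in pair 2. The block fit of edgeR gave -0.28 ± 0.10 (SE), and its adjusted p of 0.0453 was just inside the threshold. The gene spans chr17:24595816-24632630 on the minus strand (mm10). Tsc1, which stabilises TSC2, measured 42.9 and 43.2 CPM by IP against 49.4 and 56.9 by total RNA, also without overlap. Under the block it was at -0.30 ± 0.12 on the log2 scale, as large as that of Tsc2, but with fewer counts, and the adjusted p was 0.0774. The 2 mRNAs therefore lay on either side of the threshold with fold changes that differed by less than their errors.

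Rheb, the GTPase that the TSC complex restrains, did not share this direction. It measured 37.5 and 59.7 CPM by IP against 32.1 and 57.7 by total RNA, so the groups overlapped and the replicates differed far more than IP and total RNA did. Within the pairs the log2 ratio was 0.22 and 0.050, and with the block 0.13 ± 0.12 (SE) with an edgeR adjusted p of 0.569. The 95% interval of the ratio was 0.921 to 1.29. Scaling by library totals alone put the fit without the pairing at -0.0080, so there the sign of this small difference depended on the scaling. With the block and library totals alone the value was 0.040.

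**Figure D2:**
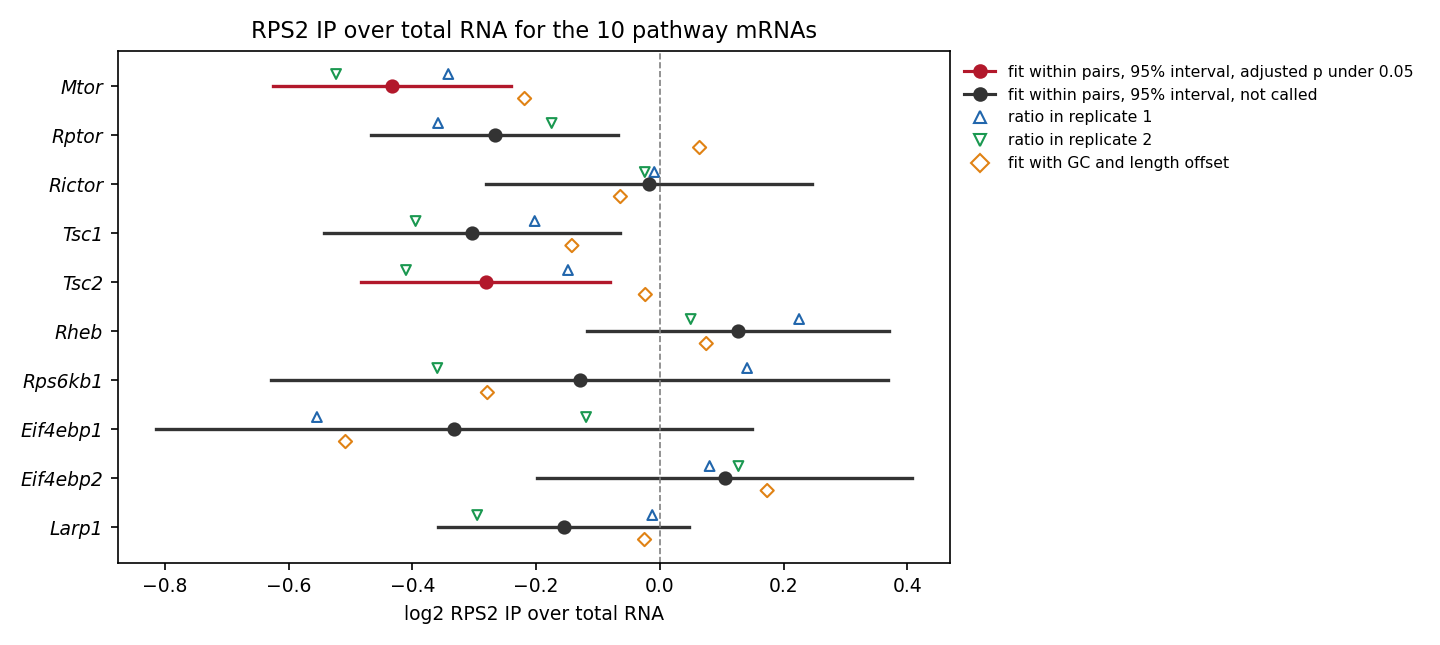
log2 ratio of RPS2 IP to total RNA for the 10 mRNAs. Circles with bars are the edgeR fit with the replicate block and its 95% interval, red where the adjusted p was under 0.05, triangles are the ratios in the single pairs, and diamonds are the block fit with an offset for GC content and length. Mtor (-0.43) and Tsc2 (-0.28) are red, Rheb (0.13) and Eif4ebp2 (0.10) lie above 0, and with the offset Mtor moves to -0.22 and Tsc2 to -0.024.

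The mRNAs for the effectors of mTORC1 gave smaller counts or smaller differences. Larp1 measured 138 and 116 CPM by IP against 139 and 143 by total RNA. The IP libraries lay below, though by -0.012 in pair 1 against -0.30 in pair 2, and with the block the log2 fold change was -0.16 ± 0.10 (SE, edgeR adjusted p = 0.354). Rps6kb1 measured 9.11 and 8.53 CPM by IP against 8.24 and 11.01 by total RNA, from 37 to 126 counts per library. Its ratio was 0.14 in pair 1 and -0.36 in pair 2, the only member whose pairs differed in sign, and its 95% interval with the block, 0.647 to 1.29 as a ratio, leaves changes of this size undetectable at this depth.

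The 4E-BPs lay on opposite sides of 0. Eif4ebp1 measured 7.66 and 9.97 CPM by IP against 11.4 and 10.8 by total RNA, without overlap, from 51 to 111 counts per library. The block fit gave -0.33 ± 0.25 on the log2 scale (SE, edgeR adjusted p = 0.416). Eif4ebp2 measured 27.3 and 24.97 CPM by IP against 25.8 and 22.8 by total RNA, with overlap, and its log2 fold change was 0.10 ± 0.15 (edgeR adjusted p = 0.725). Neither passed the test, and the difference between them was not tested. On the log2 scale the Eif4ebp2 to Eif4ebp1 ratio was 0.65 higher in the IP than in total RNA of pair 1, and 0.25 higher in pair 2.

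Over the 10 members the median log2 fold change was -0.21 in both fits, against 0.0097 over all genes tested without the pairing and 0.011 with the block. In the single pairs the median was -0.081 and -0.24. With the block 8 members were below 0 and 2 above, against 6011 and 6325 of the 12336 genes tested. The sign was the same in both pairs for 9 members, against 66.5% of all genes. For 6 members (Mtor, Rptor, Tsc1, Tsc2, Eif4ebp1, Larp1) the IP values fell short of the total RNA values without overlap, as for 14.9% of all genes tested. For 0 members they exceeded them, as for 16.9% of genes, and 31.8% of genes separated in either direction.

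Most of the members were long, with a median exonic length of 9139 bases against 4672 over all genes tested, which 9 of the 10 exceeded. Their GC content ran from 41.6% in Rictor to 55.1% in Rptor, with a median of 52.1% against 50.5% over all genes, which 6 of the 10 exceeded. When an offset fitted to these properties over all genes was added to the block fit, 0 members were called, against 6.77% of genes (3.97% higher, 2.79% lower), and the median of the members was -0.044. Mtor was then at -0.22 ± 0.10 (SE) with an edgeR adjusted p of 0.190, Tsc2 at -0.024 with 0.939, and Rptor changed sign to 0.064. The offset raised the value of 6 members and lowered that of 4. The lowered ones were Eif4ebp1, to -0.51 ± 0.24 with an adjusted p of 0.224, Rps6kb1 to -0.28, Rictor to -0.064 and Rheb to 0.075.

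**Figure D3:**
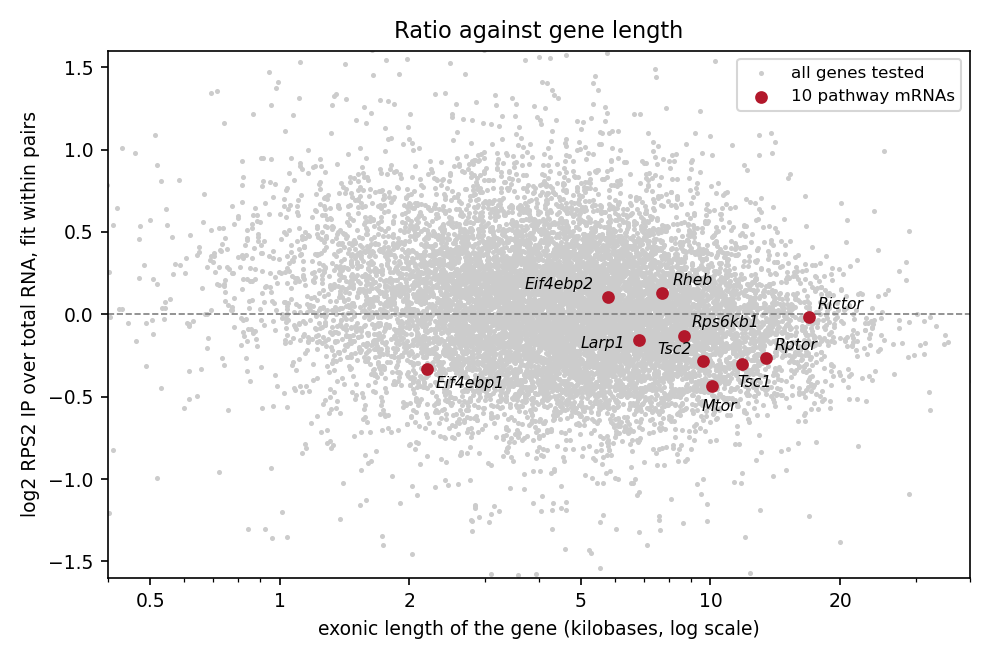
log2 ratio of RPS2 IP to total RNA, from the edgeR fit with the replicate block, against exonic length in kilobases (log axis) for all genes tested (grey) and the 10 mRNAs (red). 78 genes lie outside the axes. Mtor (10109 bases), Tsc2 (9620), Tsc1 (11833) and Rptor (13471) lie below 0 at the long end, while Rictor, the longest at 16930 bases, lies at -0.017.

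No member held a small RNA in its counted exons or shared exon bases with another gene on its strand. On the opposite strand Tsc2 shared 693 exon bases with Pkd1, Rps6kb1 155 with Rnft1 and Rptor 84 with Rptoros, and counting was by strand. Stretches of at least 50 bases with at least 95% identity to transcripts of other genes were found for 3 members, up to 397 bases in Tsc2, 102 in Rheb and 63 in Tsc1. By its default featureCounts leaves out reads aligned to several places, and how many such reads these stretches held was not tested.

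The replicates themselves differed for some members. Rheb was 1.79-fold higher in replicate 2 than in replicate 1 in total RNA and 1.59-fold higher in the IP, the largest difference of the 10 in both. Rictor was 1.27-fold and 1.26-fold higher. Mtor differed by 1.08-fold in total RNA and 0.953-fold in the IP, so its level was nearly the same in both replicates. Astrocyte, microglial and vascular marker sums were higher in replicate 1, the reverse of Rheb and Rictor. Neuronal and oligodendrocyte-lineage sums were higher in replicate 2, as were Rheb and Rictor. The part of any of these cell types in the differences was not tested.

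**Figure D4:**
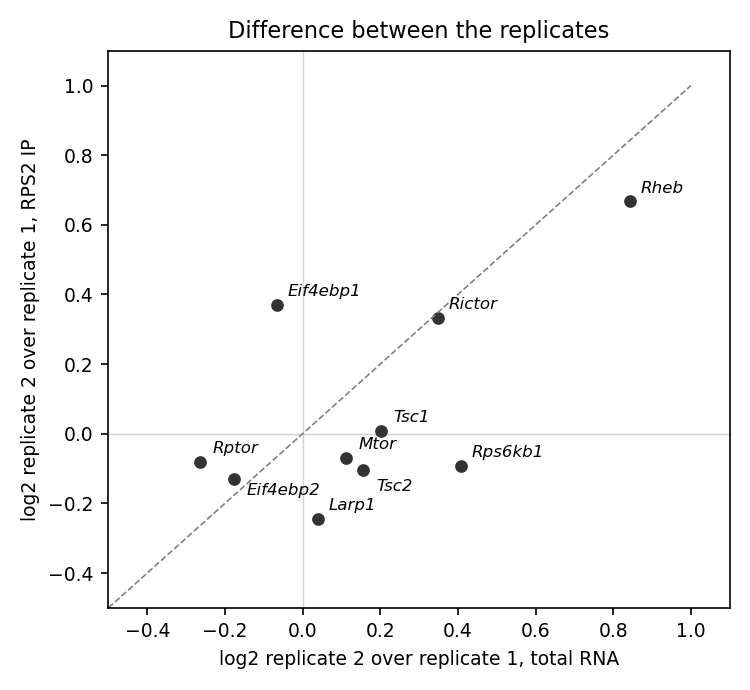
log2 difference between replicate 2 and replicate 1 for the 10 mRNAs, in total RNA (horizontal) and in the RPS2 IP (vertical), with the dashed line where both are equal. Rheb lies farthest from 0 at 0.84 and 0.67, Rictor lies on the line at 0.35 and 0.33, and Eif4ebp1 (-0.065 and 0.37) lies farthest above it.

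By distance between centred log2 CPM over the 4 libraries, the patterns most like that of Mtor among 78 members and other pathway genes were those of Tsc1 (0.158), Tsc2 (0.158) and Eif4g1 (0.196), the scaffold of the cap-binding complex. Each of them was lower in the IP than in total RNA of its own pair in both pairs, as was Mtor. Since they were chosen for likeness to Mtor in these same libraries, this follows from the choice.

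A wider list of 71 genes, chosen by their role in the pathway, gave the surroundings of the 10. Of these 69 were tested, and Prr5l and Eif4ebp3 had too few counts. Without the pairing edgeR called 0 of them, and 1 had an unadjusted p under 0.05. Under the block 6 rose and 4 fell past the threshold, 14.5% in all, close to the 14.2% of all genes. Scaling by library totals alone left 1 higher and 3 lower, and the DESeq2 block fit left 0 higher and 2 lower. DESeq2 gave no adjusted p to Akt2, Rragb, Lamtor1 and Lamtor3, which edgeR called higher with the block, so it could not call them. Rraga, also called higher by edgeR with the block, did get one from DESeq2 (0.232) and was not called. The other subunits of the mTOR complexes and their chaperones (Mlst8, Akt1s1 and 5 more) gave 0 calls among 7 tested, with a median of -0.061.

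Growth-factor and energy inputs gave 1 higher and 2 lower of 15, against 6.63% and 7.55% of all genes, with a median log2 fold change of 0.11. Akt1 and Akt2, which encode forms of the kinase that inactivates the TSC complex, were called in opposite directions. Akt1 was lower, at -0.63 and -0.36 in the pairs and -0.50 ± 0.12 (SE) with the block (edgeR adjusted p = 0.000446). Akt2 was higher at 0.45 ± 0.16 (adjusted p = 0.0469), a call lost with library totals only (0.197). Irs2, an adaptor of insulin signalling, was lower at -0.27 ± 0.098 (adjusted p = 0.0435, and 0.139 with library totals only).

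Genes of amino acid sensing at the lysosome gave 5 higher and 0 lower of 29, against 6.63% and 7.55% of all genes, with a median of 0.22. With library totals only, Lamtor3 alone of the 5 stayed called (adjusted p = 0.0164), while Lamtor1 (0.0978), Rraga (0.221), Rragb (0.219) and Sesn3 (0.0954) did not. Lamtor1 and Lamtor3 encode parts of the Ragulator that tethers the Rag GTPases to the lysosome. They were higher, at 0.69 and 0.50 in the pairs for Lamtor1 and at 0.67 and 0.86 for Lamtor3, for which the block fit gave 0.79 ± 0.20 (SE, edgeR adjusted p = 0.00182). The Rag GTPase mRNAs Rraga (0.36 ± 0.12) and Rragb (0.42 ± 0.15) were also higher, with adjusted p of 0.0188 and 0.0480. Sesn3, a stress-induced sestrin that restrains this branch, was higher at 0.45 ± 0.12 (adjusted p = 0.00435).

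The outputs of mTORC1 gave 0 higher and 2 lower of 18, or 11.1% against 14.2% of all genes, with a median of -0.16. Eif4a1, the RNA helicase of the cap-binding complex, was lowest at -1.30 and -0.59 in the pairs and -0.95 ± 0.10 (SE) with the block (edgeR adjusted p = 7.3e-18). Its counted exons hold 2 snoRNAs, and their part in the difference was not tested. Eef2k, the kinase that slows elongation, was lower at -0.33 ± 0.12 (adjusted p = 0.0393). Rps6, shown above for its start, was at -0.24 ± 0.14 and was not called (adjusted p = 0.269).

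**Figure D5:**
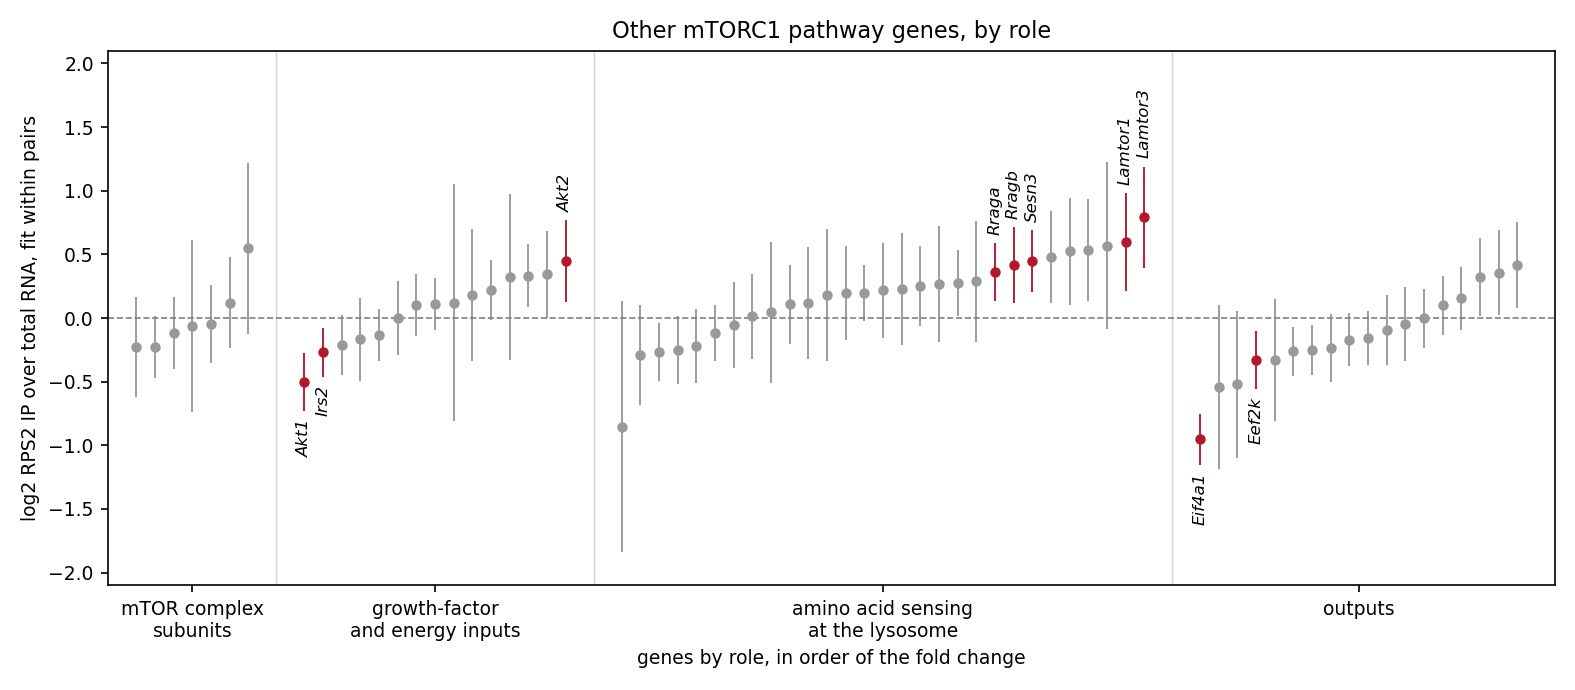
log2 ratio of RPS2 IP to total RNA for the 69 other pathway genes tested, from the edgeR fit with the replicate block, grouped by role and ordered by value within each group. Bars are 95% intervals, and genes with an adjusted p under 0.05 are red and named. Of the lysosomal genes 5 are red above 0 and 0 below, and of the outputs 2 are red below 0.

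Under the GC and length offset the wider list gave 4 higher and 1 lower of 69, against 3.97% and 2.79% of all genes. Akt2 (0.63), Lamtor3 (0.63) and Sesn3 (0.49) were called higher in both fits and Eif4a1 (-1.06) lower in both. Castor2, an arginine sensor family gene named after its values were seen, was called only with the offset, at 0.35. Akt1, Irs2, Rraga, Rragb, Lamtor1 and Eef2k were not called with it.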

How the data were processed

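The authors deposited 1 file of raw read counts per gene for each of 4 libraries, 2 RPS2 IP and 2 total RNA. Reads were trimmed with cutadapt and aligned to mm10 with STAR, and per the file headers they were counted with featureCounts 1.5.3 in stranded mode against the gene annotation of a single-cell mm10 reference. With the options in the headers, reads at several loci or in several genes are not counted. The deposited length column gives the exonic bases of each gene. Symbols came from GENCODE M21, which gave 31011 of 31053 identifiers a symbol.

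The statistics used edgeR 4.0.16 under R 4.3.3 (filterByExpr, TMM, glmQLFit, glmQLFTest, two-sided, Benjamini-Hochberg over 12336 genes, threshold 0.05). CPM uses TMM-scaled library sizes except where the library total is named, and ratios within a pair are differences of log2 CPM with a prior count of 2. Intervals are 95% and come from the same fit. Since total RNA was taken from the samples before the IP, equal replicate numbers were taken to mark 1 culture. Deviations from the group means had a correlation of 0.733 between same-numbered libraries. The fit with the replicate block has 1 residual degree of freedom per gene and an infinite prior, so every gene took its dispersion from the shared trend. Whether the replicates were separate cultures is not stated, so p-values measure only the spread between these libraries. With the block that spread is the trend shared over genes, not the gene's own. The offset was a loess of each library's deviation on GC content and log2 length. Other alternatives were DESeq2 1.42.0, other scaling, filters, thinning to the smallest library and leaving out each library. Near-identical stretches were looked for using blastn 2.17.0.

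The 10 members, the wider list, the markers and the tests were chosen with earlier results of these data known. Some genes of the wider list are not reported here, and its counts leave them out. The text names every member, each gene of the wider list called in either fit, and the 3 genes nearest to Mtor in pattern. Castor2, Rps6, the genes without enough counts, Mlst8 and Akt1s1 fall outside that rule and were named after their values were seen.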

Additional observations from a re-analysis of the deposited data

How the results depend on the processing

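In the fit without the pairing, 0 members and 0 genes of the wider list were called under every scaling, filter and tool tried and without any single library, while the number of all genes called lower was 14 without the low-count filter, 5 with DESeq2 and between 1 and 8 without single libraries. With the replicate block 818 genes were called higher and 931 lower, with 2 members lower and 6 and 4 genes of the wider list. Given in the same order (all genes higher, all genes lower, members lower, wider list higher and lower), the replicate block gave 158, 382, 1, 0 and 2 with DESeq2, and 283, 878, 1, 1 and 3 with library totals only. It gave 769, 699, 1, 4 and 2 with no low-count filter, and 878, 926, 2, 7 and 4 when each library had to hold 10 counts or more. It gave 490, 344, 0, 4 and 1 with the offset for GC and length, and 679, 847, 2, 6 and 5 after thinning. Over the block and its 6 variants Mtor was called in 6 of 7 settings (adjusted p from 0.000110 to 0.190) and Tsc2 in 3 of 7 (0.0113 to 0.939), and no other member in any setting that gave it an adjusted p. For Rps6kb1, Eif4ebp1 and Eif4ebp2 DESeq2 with the block gave none. The median of the members moved to -0.044 with the offset, and that of pair 2 to -0.38 with library totals only. Without the pairing, signs turned for Rheb with library totals only (-0.0080) and for Rictor with no low-count filter (0.0012, and 0.0047 under the block). With the block and offset the sign of Rptor turned (0.064). Without single libraries Rictor ranged from -0.20 to 0.17, Rheb from -0.27 to 0.60 and Rps6kb1 from -0.32 to 0.097, and the other members kept their sign. The cause of these shifts was not tested. With 37 to 126 counts per library for Rps6kb1 and 51 to 111 for Eif4ebp1, depth limits what can be seen for these mRNAs.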
